A study of Mus musculus with 9 samples.

Results

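The HOX genes encode homeodomain transcription factors of 4 clusters, named A to D, and their transcripts were followed in the media of mouse femoral arteries. The media is the smooth muscle layer of the vessel wall. Members were taken by name, as every row of the deposited tables whose gene name starts with Hoxa, Hoxb, Hoxc or Hoxd. This gave 36 of the 17093 genes present in any of the 3 tables, of which 30 are protein-coding and 6 are antisense or other non-coding RNAs that are reported apart. The annotation holds 39 protein-coding HOX genes, and the other 9 (Hoxa13, Hoxb1, Hoxb13, Hoxc12, Hoxc13, Hoxd1, Hoxd11, Hoxd12 and Hoxd13) were not analysed here. On the mm10 (GRCm38) build the coding members lie on chromosome 6 (cluster A, which includes Hoxa2 at 52162417 to Hoxa11 ending at 52245810), chromosome 11 (cluster B, Hoxb9 at 96271457 to Hoxb2 ending at 96354012), chromosome 15 (cluster C, Hoxc11 at 102954427 to Hoxc4 ending at 103036852) and chromosome 2 (cluster D, Hoxd10 at 74691924 to Hoxd3 ending at 74748442).

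HOX clusters are read out along the body axis in the embryo: genes at one end, with low paralog numbers, are used toward the head, and genes at the other end, with high numbers, toward the tail and the limb tips. Genes of the same number in different clusters are paralogs, copies that descend from one ancestral gene. Adult fibroblasts and vascular smooth muscle cells keep a HOX pattern that reflects where in the body they arose, and HOX proteins bind DNA together with PBX and MEIS cofactors, while Polycomb and Trithorax protein complexes keep the clusters silent or active.

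The 9 libraries form 3 groups of 3, all from C57BL/6 mice. The inhibitor-treated group came from arteries taken 14 days after wire injury in mice dosed with VS-4718, a small-molecule inhibitor of focal adhesion kinase (FAK). The compound was given orally for 2 weeks, at 50 mg/kg and 2 times daily. The injured group came from arteries at the same day after wire injury without the inhibitor, and the sham group from sham controls. The protocol names a citrate vehicle but does not say per library which mice received it, and ages are not given. The outer layers, fat and adventitia, had been stripped off, and the inside of the vessel was rinsed with TRIzol with the aim of removing endothelial and immune cells. By its title, the study asked about FAK and gene activity as smooth muscle cells switch phenotype. The number of mice per library is not in the labels. What the p-values measure is thus library-to-library spread, possibly technical.

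Between 14676891 and 21248740 reads were recovered per library. Levels below are normalised read counts on 1 scale set across the 9 libraries, in the order of replicates 1, 2 and 3, since the 3 tables had been scaled separately. Means carry the standard deviation (SD, n = 3 libraries per group). Log2 fold changes are differences of log2(normalised count + 1) between 2 group means within 1 table, with their standard error. A gene was called when limma's Benjamini-Hochberg adjusted p lay under 0.05. This scale understates the change of genes with few reads.

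Markers of the tissue and of other cells differed between the groups. The 10 smooth muscle markers were all detected, 9 of them were called lower in injured than in sham libraries, and their summed level was 640086 to 657428 in inhibitor-treated, 157078 to 185832 in injured and 558917 to 731486 in sham libraries. All 12 macrophage markers were called higher in injured than in sham libraries. They summed to 6015 to 10336 in inhibitor-treated, 35888 to 54596 in injured and 4028 to 5531 in sham libraries, and the 10 fibroblast markers to 47171 to 49634 in inhibitor-treated, 105847 to 139971 in injured and 58001 to 71192 in sham libraries. Of the fibroblast markers, 7 of 10 were called higher and 1 was called lower in injured than in sham. The 10 endothelial markers summed to 31187 to 32414 in inhibitor-treated, 37183 to 50246 in injured and 24563 to 37854 in sham libraries. Of these, 8 of 10 were called higher and 0 lower in injured than in sham libraries. Between inhibitor-treated and injured libraries 8 of 10 were called lower and 0 higher. The sum of 12 skeletal muscle markers was 2416 to 37691 in inhibitor-treated, 31906 to 533769 in injured and 5167 to 30488 in sham libraries, with the highest value in injured replicate 2. Of these 12 markers, 9 were called higher in injured than in sham libraries and 0 lower. Of 10 erythroid markers, 8 had values, which summed to 39879 to 91354 in inhibitor-treated, 354 to 789 in injured and 483 to 664 in sham libraries. The 10 adipocyte markers summed to 28867 to 36942 in inhibitor-treated, 52719 to 84285 in injured and 29744 to 77378 in sham libraries, highest of the sham libraries in replicate 3. Of these markers, 7 of 10 were called lower and 2 were called higher in inhibitor-treated than in injured libraries. The 8 Schwann cell markers summed to 5117 to 6727 in inhibitor-treated, 6717 to 8534 in injured and 5357 to 6345 in sham libraries, with 5 of 8 called higher in injured than in sham. The hepatocyte sum was 25892 in inhibitor-treated replicate 3 and at most 1781 in any other library. No marker of these lists with a value was at 0 in every library of a group, except 1 hepatocyte marker in the injured group. In such bulk samples fewer cells of a type and less RNA per cell cannot be told apart, and the part of cell mixture in the HOX results was not tested.

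Femoral artery media of the sham group carried a HOX pattern led by the middle genes of clusters A and B. Levels of different genes are compared per kilobase of exon. Hoxa5, a regulator of lung and lower neck development, was the highest at 411 ± 12.8 normalised counts per kb in sham libraries, followed by Hoxb4 at 302 ± 14.2, Hoxa7 at 272 ± 7.02, Hoxb6 at 228 ± 8.40 and Hoxb7 at 209.5 ± 7.22. The ranges of these first 5 genes did not overlap from each to the next. Below them Hoxb8, Hoxb5, Hoxa2 and Hoxc8 lay between 120 and 131 per kb, and these neighbours overlapped. Hoxd10, Hoxa11 and Hoxd3 lay at 7.79, 5.20 and 1.77 per kb, and Hoxc11 had no read in any sham library. In inhibitor-treated libraries Hoxa5, at 335 ± 12.5 per kb, and Hoxb4, at 279 ± 23.2, were again the top genes. In injured libraries the order was another one: Hoxc8 led at 536 ± 212 per kb, then Hoxc10 at 356 ± 41.5, Hoxc9 at 273 ± 99.0, Hoxc6 at 266 ± 42.9 and Hoxd8 at 248 ± 25.5, each overlapping the next. The plot of levels per kilobase shows these patterns side by side.

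**Figure D1:**
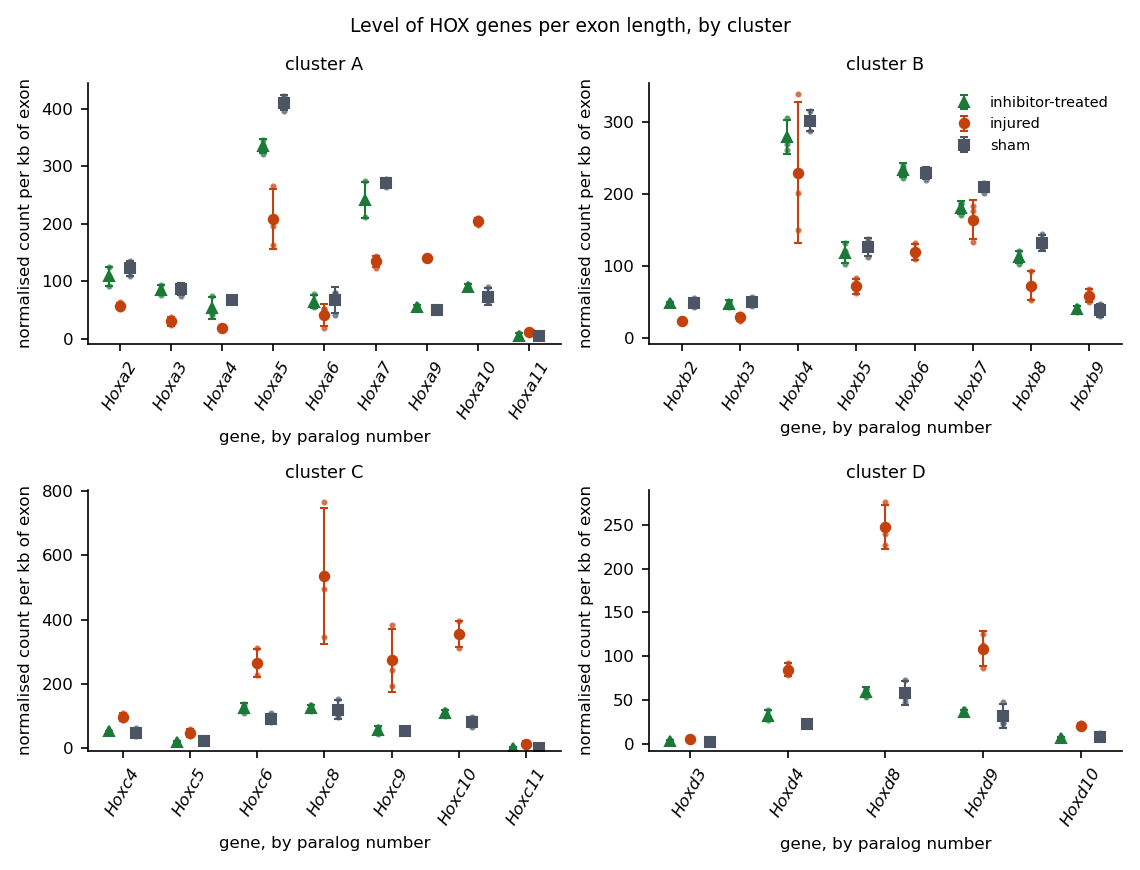
Mean level of coding HOX genes in normalised counts per kb of exon (vertical axis, linear, with a different range in each panel), by cluster and paralog number (horizontal axis), for inhibitor-treated, injured and sham groups. Bars are SD over 3 libraries and small dots single libraries; Hoxc8 stands at 536 per kb in injured libraries, against 120 in sham libraries, and Hoxa5 at 208 against 411.

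Injury was accompanied by changes in opposite directions within the family. All 7 coding members of cluster C and all 5 of cluster D were higher in injured than in sham libraries, and so were Hoxa9, Hoxa10 and Hoxa11. The genes of clusters A and B with low and middle numbers went the other way: Hoxa2, Hoxa3, Hoxa4, Hoxa5, Hoxa7, Hoxb2, Hoxb3, Hoxb5, Hoxb6 and Hoxb8 were lower. In all, 25 of 30 coding members were called, 15 higher and 10 lower, where 37.3% of the 16278 genes tested were called, 20.6% higher and 16.8% lower. Hoxc11 and Hoxd3 reached the mean of 10 needed for a test only through their injured values, so they could hardly count as lower. Hoxa6, Hoxb4, Hoxb7 and Hoxb9 were among those that did not pass the test. The injured values did not overlap the sham values for 27 members, 16 higher and 11 lower, where 51.3% of all genes tested did not overlap, 26.0% higher and 25.3% lower. On the recovered reads edgeR called 25 members (37.2% of all genes) and DESeq2 24 (39.4%), and the authors' deposited table called 24 (39.4%). The median absolute log2 fold change was 1.10 over the 30 members and 0.42 over all genes tested. When libraries were scaled on ribosomal protein genes, which shifted the median log2 fold change of all genes to -0.28, the split was 10 higher and 12 lower, and with quantile normalisation 11 higher and 13 lower. Without injured replicate 2 and sham replicate 3, which stood apart in other cell markers, 20 members were called, 11 higher and 9 lower.

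**Figure D2:**
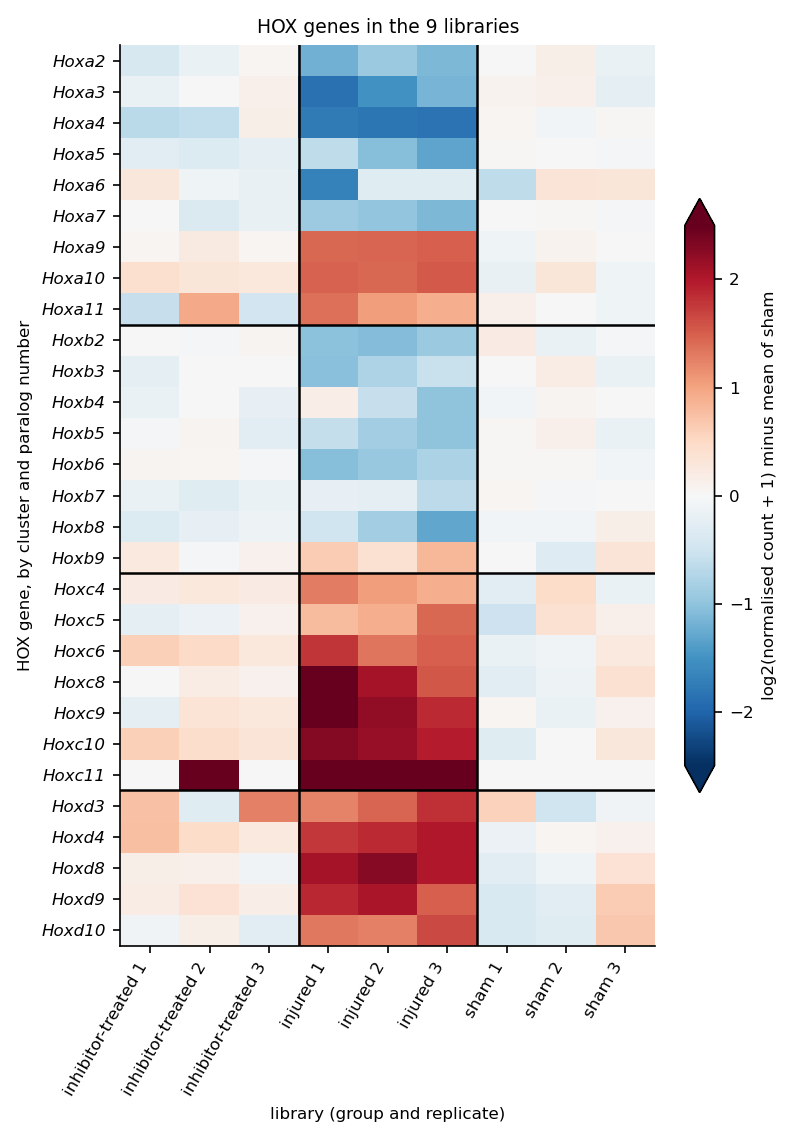
Difference of log2(normalised count + 1) from the mean of the sham group (colour, saturated beyond 2.5 in either direction) for coding HOX genes (rows, by cluster and paralog number) in each of the 9 libraries (columns: inhibitor-treated, injured, sham). Cluster C, cluster D and Hoxa9 to Hoxa11 are red in all 3 injured columns, most other A and B genes are blue there, and the inhibitor-treated columns are mostly pale; Hoxc11 had reads in 1 inhibitor-treated library.

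Cluster C held the largest increases among coding members. Hoxc8, which patterns the thoracic skeleton and motor neurons at forelimb level, had 2166, 1406 and 983 normalised counts in injured libraries, against 276, 305 and 435 in sham libraries. All 3 injured values lay above the sham range, and injured replicate 1 was the highest. The log2 fold change was 2.11 ± 0.29 (adjusted p = 0.00066), a 4.31-fold difference. Hoxc9, which sets thoracic motor neuron identity, had 932, 593 and 467 in injured and 132, 114 and 136 in sham libraries (log2 fold change 2.31 ± 0.24, adjusted p = 0.000188). The order of the injured libraries was that of Hoxc8. Hoxc10, a gene of the hindlimb and lumbar level, had 753, 689 and 595 in injured and 123, 154 and 185 in sham libraries (log2 fold change 2.14 ± 0.18, adjusted p = 6.71e-05).

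The genes at the low-numbered end of cluster C changed less in size. Hoxc6, used at forelimb and upper trunk level, had 753, 551 and 615 in injured and 194, 207 and 261 in sham libraries (log2 fold change 1.53 ± 0.17, adjusted p = 0.000255). Hoxc4 had 285, 244 and 221 in injured and 96.3, 161 and 104 in sham libraries (log2 fold change 1.07 ± 0.23), and Hoxc5 had 118, 127 and 185 in injured and 47.2, 88.1 and 74.2 in sham libraries (log2 fold change 1.04 ± 0.29). Their injured and sham values did not overlap, although the lowest injured value of Hoxc5, 118, was not far above the highest sham value, 88.1. The call of Hoxc5 was lost in 4 of 16 alternative settings, among them leaving out sham replicate 1. Hoxc11, a hindlimb-level gene, was represented by 33, 35 and 12 reads in injured replicates 1, 2 and 3 and by 0 reads in each sham library. Its injured mean was 25.5 times a limit of 3 reads over the sham group, which covers counting error of the sham libraries only. The spread of the injured libraries is not in this ratio, so it is not a lower bound. The log2 fold change, which depends on the added count of 1, was 4.59 ± 0.67 (adjusted p = 0.000964).

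Cluster D rose in the same comparison. Hoxd8 had 659, 757 and 622 in injured and 129, 144 and 201 in sham libraries, with a log2 fold change of 2.11 ± 0.19 (adjusted p = 7.96e-05). Hoxd9 had 241, 269 and 185 in injured and 49.2, 54.0 and 101 in sham libraries (log2 fold change 1.80 ± 0.30, adjusted p = 0.00185). Sham replicate 3 was the highest sham library for both genes and still lay under every injured library. Hoxd4, known for a retinoic acid-responsive neural enhancer, had 231, 247 and 272 in injured and 60.2, 69.3 and 72.0 in sham libraries (log2 fold change 1.87 ± 0.17). Hoxd10, a lumbar-level gene, had 34.7, 33.3 and 43.9 in injured and 10.0, 10.6 and 21.8 in sham libraries (log2 fold change 1.40 ± 0.39, adjusted p = 0.0212). Its call was lost in 4 of 16 alternative settings, which were quantile normalisation, scaling on ribosomal protein genes and leaving out sham replicate 1 or 2, with adjusted p of up to 0.158. Hoxd3, linked in endothelial cells to vessel growth, was low at 17.9, 20.9 and 27.5 in injured and 11.0, 4.70 and 6.55 in sham libraries (log2 fold change 1.49 ± 0.44, adjusted p = 0.0281). Hoxd3 and Hoxd4 share 62.3% and 52.3% of their exon bases with overlapping genes on the same strand, so reads could be split between them, and the call of Hoxd3 was lost in 8 of 16 alternative settings.

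Cluster A divided in its middle. Hoxa9, a regulator of blood progenitor growth, had 767, 782 and 805 normalised counts in injured and 265, 304 and 286 in sham libraries, and its log2 fold change of 1.45 ± 0.12 had the lowest adjusted p of the family (5.4e-05). Hoxa10, needed in the uterus and the lumbar spine, had 666, 648 and 688 in injured and 208, 295 and 219 in sham libraries (log2 fold change 1.48 ± 0.16, adjusted p = 0.000194). The injured libraries of both genes lay close together, with coefficients of variation of 2.39% and 3.04%. Hoxa11, a gene of the forearm and lower leg bones, had only 32.3, 25.7 and 23.2 in injured and 13.0, 11.7 and 10.9 in sham libraries (log2 fold change 1.10 ± 0.34, adjusted p = 0.0326), and its call was lost in 12 of 16 alternative settings.

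Next to them on the same chromosome, Hoxa7 had 414, 393 and 357 in injured and 787, 799 and 759 in sham libraries, a fall of 1.02 on the log2 scale (adjusted p = 0.000251). The level of Hoxa9 per kb relative to that of Hoxa7 was 0.193, 0.282 and 0.222 in inhibitor-treated, 0.956, 1.02 and 1.16 in injured and 0.174, 0.196 and 0.194 in sham libraries. The border between higher and lower genes thus lay between Hoxa7 and Hoxa9, since the cluster has no Hoxa8. Hoxa5 had 497, 368 and 307 in injured and 791, 778 and 744 in sham libraries (log2 fold change -1.01 ± 0.18). Hoxa4 had 31.1, 30.4 and 29.3 in injured and 111, 103 and 110.2 in sham libraries (log2 fold change -1.81 ± 0.21, adjusted p = 0.00032), the largest decrease among coding members. All injured values of both genes lay below the sham range.

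Hoxa3, needed for the thymus, the parathyroids and the neck arteries derived from the pharyngeal arches, had 142, 181 and 232 in injured and 553, 564 and 445 in sham libraries (log2 fold change -1.51 ± 0.20, adjusted p = 0.000576). Hoxa2, a gene of the hindbrain and pharyngeal arches, had 93.2, 113 and 99.0 in injured and 219.7, 239.6 and 194 in sham libraries (log2 fold change -1.10 ± 0.17). Neither gene overlapped between the groups. Hoxa6, with 16.7, 45.6 and 45.6 in injured and 36.1, 70.5 and 69.8 in sham libraries (log2 fold change -0.77 ± 0.45), did not pass the test and its groups overlapped.

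In cluster B the decreases were about 1 log2 unit or less. Hoxb6, a marker of lateral plate mesoderm in the embryo, had 215, 232 and 258 in injured and 460.5, 456 and 429.9 in sham libraries (log2 fold change -0.94 ± 0.13, adjusted p = 0.000764). Hoxb2, a hindbrain gene, had 81.3, 78.9 and 86.9 in injured and 192, 148 and 165 in sham libraries (log2 fold change -1.02 ± 0.18). Both had injured values below every sham value. Hoxb3 had 102, 124 and 143 in injured and 211, 239.6 and 189 in sham libraries (log2 fold change -0.80 ± 0.19). Hoxb5, which acts in early vascular progenitors, had 232, 191 and 175 in injured and 358, 382 and 313 in sham libraries (log2 fold change -0.83 ± 0.16). Hoxb8, which keeps myeloid progenitors dividing when forced on, had 245, 189 and 140.3 in injured and 328, 330.1 and 381 in sham libraries (log2 fold change -0.89 ± 0.21, adjusted p = 0.0108). None of these 3 genes overlapped between injured and sham libraries.

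The remaining cluster B members were not called. Hoxb4, whose forced expression expands blood stem cells, had 868, 517 and 383 in injured and 736, 809 and 777 in sham libraries (log2 fold change -0.48 ± 0.26, adjusted p = 0.182). Injured replicate 1 lay above all sham libraries and the other injured libraries below them, and without injured replicate 1 the gene was called lower. Hoxb7 had 282, 272 and 206 in injured and 333, 311 and 326 in sham libraries (log2 fold change -0.37 ± 0.16). Hoxb9, at the high-numbered end, had 151, 127 and 173 in injured and 96.3, 77.5 and 122 in sham libraries (log2 fold change 0.61 ± 0.22, adjusted p = 0.0643), with every injured value above the sham range.

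Paralogs of one number therefore differed in direction by cluster. Among paralogs 3 to 8, 8 of 11 members of clusters A and B were called lower and none higher, and 7 of 7 members of clusters C and D were called higher. Among paralogs 9 to 11, 8 of 9 members of all clusters were called higher and none lower. Of all genes tested, 20.6% were called higher and 16.8% lower. The bands part at the border seen in cluster A of these same data, so the counts are given as a description. In paralog group 8, the level of Hoxc8 per kb relative to Hoxb8 was 1.14, 1.17 and 1.05 in inhibitor-treated, 8.22, 6.92 and 6.52 in injured and 0.782, 0.861 and 1.06 in sham libraries. For Hoxc6 relative to Hoxb6 the values were 0.573, 0.538 and 0.489 in inhibitor-treated, 2.85, 1.94 and 1.94 in injured and 0.343, 0.37 and 0.495 in sham libraries. Within cluster C the ratio of Hoxc8 to Hoxc9 was 2.62, 2.01 and 2.00 in inhibitor-treated, 1.99, 2.04 and 1.80 in injured and 1.79, 2.30 and 2.74 in sham libraries, so these neighbours kept overlapping ratios while both changed in level.

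To show the sequence next to genes that moved in opposite directions, the 250 bases before the start of Hoxa5 and Hoxb8, lower in injured arteries, and of Hoxa9 and Hoxd8, higher there, were taken from RefSeq's promoter table (GRCm38.p6), in which 16 of the 30 coding members had an entry. For Hoxa9, RefSeq's start lies inside the gene as the annotation of the tables has it, which ends at 52231089. The windows are printed 5′ to 3′ on the gene's own strand. They are chr6:52204588-52204837 (minus strand) for Hoxa5, chr11:96281655-96281904 (plus) for Hoxb8, chr6:52227371-52227620 (minus) for Hoxa9 and chr2:74704365-74704614 (plus) for Hoxd8. Capitals mark matches, on either strand, to the PBX-HOX motif TGATNNAT, the MEIS motif TGACAG and the retinoic acid receptor half-site AGGTCA. No marked matches overlapped. The CArG box bound by serum response factor was also searched.
Hoxa5: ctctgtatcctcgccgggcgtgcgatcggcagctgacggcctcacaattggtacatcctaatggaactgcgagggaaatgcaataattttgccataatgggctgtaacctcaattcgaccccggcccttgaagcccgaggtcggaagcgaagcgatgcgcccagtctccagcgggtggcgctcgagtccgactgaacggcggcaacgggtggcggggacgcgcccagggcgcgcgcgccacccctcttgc
Hoxb8: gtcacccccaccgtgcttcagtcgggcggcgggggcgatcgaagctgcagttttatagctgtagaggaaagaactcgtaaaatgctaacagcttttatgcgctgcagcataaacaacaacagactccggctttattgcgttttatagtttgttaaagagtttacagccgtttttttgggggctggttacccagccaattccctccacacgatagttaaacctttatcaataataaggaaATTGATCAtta
Hoxa9: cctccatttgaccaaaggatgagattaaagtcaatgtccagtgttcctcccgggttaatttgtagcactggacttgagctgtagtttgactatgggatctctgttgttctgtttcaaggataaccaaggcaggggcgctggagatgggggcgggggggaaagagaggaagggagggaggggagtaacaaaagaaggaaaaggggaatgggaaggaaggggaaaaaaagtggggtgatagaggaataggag
Hoxd8: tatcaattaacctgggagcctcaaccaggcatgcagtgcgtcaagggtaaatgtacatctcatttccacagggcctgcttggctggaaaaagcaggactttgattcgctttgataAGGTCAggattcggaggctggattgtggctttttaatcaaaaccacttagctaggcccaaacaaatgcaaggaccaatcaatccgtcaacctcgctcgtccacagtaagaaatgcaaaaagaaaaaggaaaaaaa
The Hoxb8 window held a PBX-HOX match and the Hoxd8 window a half-site, and the other 2 windows held none of these letters. The PBX-HOX motif was in 2 of the 16 member windows (Hoxa2 and Hoxb8) and in 7.68% of all 32851 promoters. The MEIS motif was in 2 (Hoxa2 and Hoxa3) and in 15.9% of all promoters, and the CArG box in none of the 16 and in 1.47% of all. The half-site was in 6 members (Hoxb4, Hoxc4, Hoxd3, Hoxd4, Hoxd8 and Hoxd10) and in 14.0% of all promoters. By direction after injury, it was in 5 of 9 windows of members called higher and in 0 of 5 of members called lower. The PBX-HOX and the MEIS motif were each in 0 of 9 windows of members called higher and in 2 of 5 of members called lower. These counts are small and were not tested. A match describes letters in this window and is not a site of binding.

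In arteries of inhibitor-treated mice the HOX genes lay on the other side of the injured arteries. The comparison asks how the media of injured arteries differed with the FAK inhibitor. Of 30 coding members, 23 were called between inhibitor-treated and injured libraries, 10 higher and 13 lower, where 36.1% of the 16901 genes tested were called, 17.6% higher and 18.5% lower. The 10 higher members were Hoxa2, Hoxa3, Hoxa4, Hoxa5, Hoxa7, Hoxb2, Hoxb3, Hoxb5, Hoxb6 and Hoxb8, and the 13 lower members were Hoxa9, Hoxa10, all 7 of cluster C, and Hoxd4, Hoxd8, Hoxd9 and Hoxd10. Each of these 23 had been called in the opposite direction between injured and sham libraries. Since both comparisons use the same 3 injured libraries, this count is given as a description. Hoxc11 reached the mean of 10 only through its injured values here too, so it could hardly count as higher. The 2 groups did not overlap for 25 members, 11 higher and 14 lower, where 51.6% of all genes did not overlap, 26.1% higher and 25.5% lower. On the recovered reads edgeR called 21 members (35.3% of all genes) and DESeq2 23 (40.4%), and the authors' deposited table called 23 (40.3%). Scaled on ribosomal protein genes, which shifted the median of all genes to 0.43, the split was 11 higher and 9 lower. With 2 libraries a group, leaving out injured replicate 2 and inhibitor-treated replicate 3, 12 members were called, 3 higher and 9 lower.

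**Figure D3:**
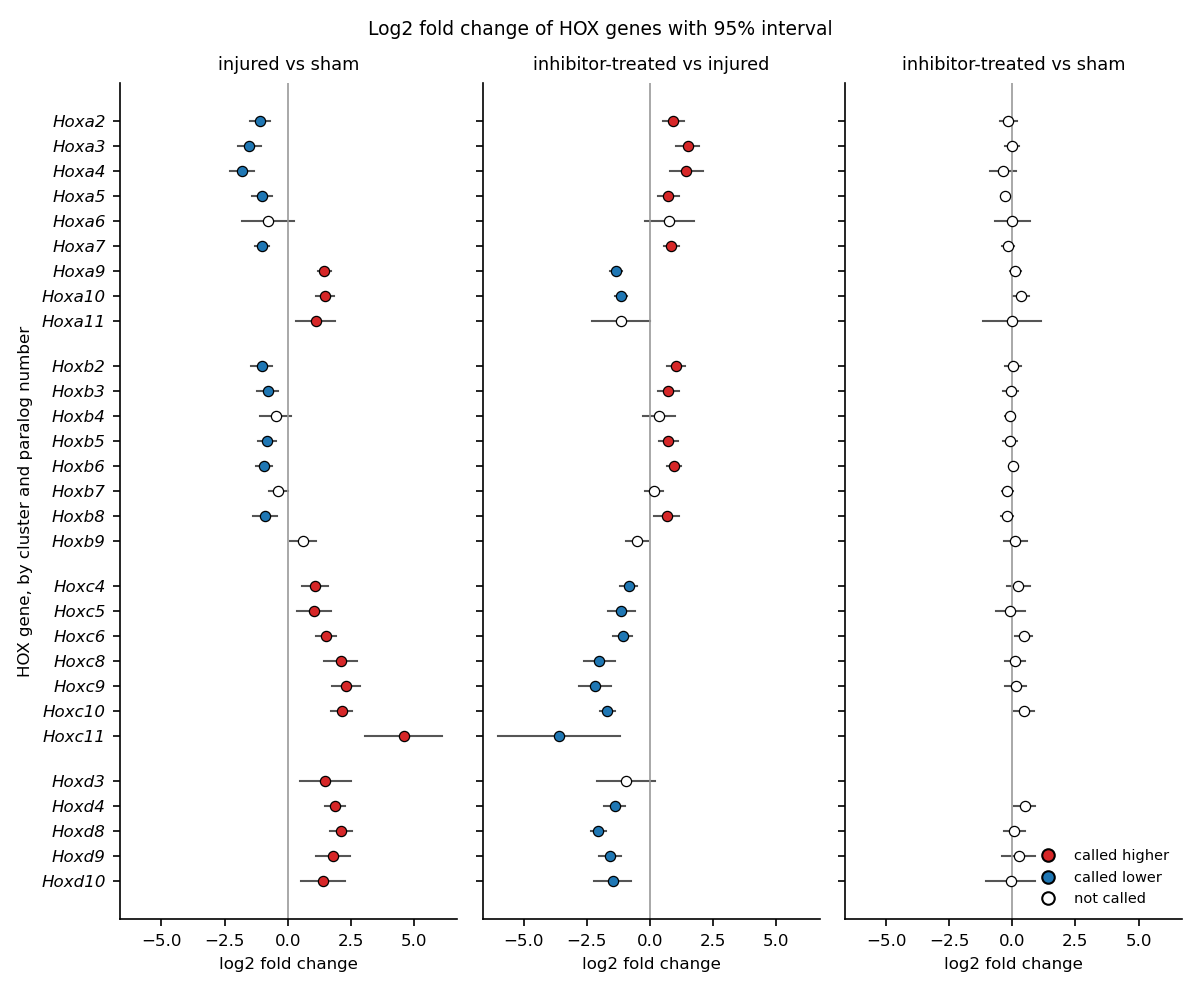
Log2 fold change of coding HOX genes (horizontal axis, points) with its 95% confidence interval (lines) in 3 comparisons, on a shared linear scale, with genes by cluster and paralog number down the page. Filled points are called higher (red) or lower (blue) at an adjusted p under 0.05; 15 and 10 members are called between injured and sham arteries, 10 and 13 between inhibitor-treated and injured, and 0 between inhibitor-treated and sham. The point for Hoxc11 depends on the added count of 1, because sham libraries had 0 reads.

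The largest differences here were among members of clusters C and D, though others of these clusters, such as Hoxc4, differed less than Hoxa3. Hoxc9 had 108, 162 and 153 in inhibitor-treated and 932, 593 and 467 in injured libraries, a log2 fold change of -2.19 ± 0.27 (adjusted p = 0.000982). Hoxd8 had 172, 170.0 and 147 in inhibitor-treated and 659, 757 and 622 in injured libraries (log2 fold change -2.05 ± 0.13, adjusted p = 7.73e-05). Hoxc8 had 331, 379.6 and 356 in inhibitor-treated and 2166, 1406 and 983 in injured libraries (log2 fold change -2.02 ± 0.26, adjusted p = 0.00113). In each of the 3, every inhibitor-treated library lay below every injured one. Hoxc10 had 229, 208 and 191 in inhibitor-treated and 753, 689 and 595 in injured libraries (log2 fold change -1.69 ± 0.13). Hoxc6 had 332, 306 and 261 in inhibitor-treated and 753, 551 and 615 in injured libraries (log2 fold change -1.08 ± 0.16), and Hoxd4 113, 91.9 and 79.2 in inhibitor-treated and 231, 247 and 272 in injured libraries (log2 fold change -1.40 ± 0.18). The log2 fold changes of Hoxd9, Hoxd10, Hoxc5 and Hoxc4 were -1.57, -1.48, -1.13 and -0.85, with adjusted p of 0.00078, 0.00863, 0.00741 and 0.00363. Hoxc11 had 0, 9 and 0 reads in inhibitor-treated libraries, 9 in all, against 80 in the injured group (adjusted p = 0.0302), and its call was lost in 6 of 16 alternative settings. Hoxd3, with 12.4, 5.51 and 18.2 in inhibitor-treated and 17.9, 20.9 and 27.5 in injured libraries (log2 fold change -0.94 ± 0.49, adjusted p = 0.171), did not pass.

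Within cluster A the division between Hoxa7 and Hoxa9 appeared again with the signs exchanged. Hoxa9 had 296, 333 and 294 in inhibitor-treated and 767, 782 and 805 in injured libraries (log2 fold change -1.35 ± 0.10, adjusted p = 0.000134), and Hoxa10 had 315, 294 and 285 in inhibitor-treated and 666, 648 and 688 in injured libraries (log2 fold change -1.16 ± 0.10, adjusted p = 0.000221). Hoxa7 had 790.3, 608 and 683 in inhibitor-treated and 414, 393 and 357 in injured libraries (log2 fold change 0.83 ± 0.13, adjusted p = 0.00237). None of these 3 genes overlapped between the groups. Hoxa3 had 459, 513 and 562 in inhibitor-treated and 142, 181 and 232 in injured libraries (log2 fold change 1.49 ± 0.19), the largest increase among coding members. Hoxa4 had 67.5, 70.8 and 120.2 in inhibitor-treated and 31.1, 30.4 and 29.3 in injured libraries (log2 fold change 1.43 ± 0.28), with inhibitor-treated replicate 3 above the other 2. Hoxa2 had 165, 194 and 223 in inhibitor-treated and 93.2, 113 and 99.0 in injured libraries, higher by 0.92 on the log2 scale, and Hoxa5 had 633, 604 and 650.1 in inhibitor-treated and 497, 368 and 307 in injured libraries, higher by 0.72. Neither overlapped between the groups, but the call of Hoxa5 was lost in 4 of 16 alternative settings, among them leaving out inhibitor-treated replicate 1 or 3 or injured replicate 2, with adjusted p of up to 0.162. Hoxa6 (log2 fold change 0.76 ± 0.42) and Hoxa11 (log2 fold change -1.15 ± 0.49) did not pass, and Hoxa11 was called lower only when inhibitor-treated replicate 2 was left out.

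In cluster B, Hoxb2 had 167, 165 and 175 in inhibitor-treated and 81.3, 78.9 and 86.9 in injured libraries (log2 fold change 1.03 ± 0.15, adjusted p = 0.00169), and Hoxb6 had 473, 464 and 436 in inhibitor-treated and 215, 232 and 258 in injured libraries (log2 fold change 0.96 ± 0.12, adjusted p = 0.000912). These were the clearest differences of the cluster, with all inhibitor-treated values above all injured values. Hoxb3, Hoxb5 and Hoxb8 were higher by 0.73, 0.73 and 0.67 on the log2 scale, with adjusted p of 0.016, 0.011 and 0.0431. The calls of Hoxb3, Hoxb5 and Hoxb8 were lost in 3, 2 and 8 of 16 alternative settings, among them leaving out inhibitor-treated replicate 2. Hoxb4 (log2 fold change 0.36 ± 0.27), Hoxb7 (log2 fold change 0.16 ± 0.15) and Hoxb9 (log2 fold change -0.51 ± 0.18, adjusted p = 0.0624) did not pass.

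Between inhibitor-treated and sham arteries no coding HOX gene was called by limma, of 28 tested, where 6.08% of the 16166 genes tested were called, 5.15% higher and 0.934% lower. Hoxc11 and Hoxd3, low in both groups, were not in this comparison. Unadjusted p lay under 0.05 for 5 of the 28. DESeq2 on the recovered reads called 0 (8.94% of all genes), the authors' deposited table called 0 (8.98%), and edgeR 1, Hoxa5 (5.56%). The 2 groups did not overlap for 6 members, 3 higher and 3 lower, where 27.9% of all genes did not overlap, 14.7% higher and 13.1% lower. Hoxa5 had 633, 604 and 650.1 in inhibitor-treated and 791, 778 and 744 in sham libraries, without overlap, and its log2 fold change of -0.28 ± 0.07 missed the threshold in limma (adjusted p = 0.0585). Log2 fold changes of the 28 members ran between -0.36 (Hoxa4) and 0.49 (Hoxd4), and their median absolute value was 0.12, against 0.16 over all genes tested. Misses of the threshold do not show equal levels. For Hoxc8 the 95% interval of the log2 difference was -0.28 to 0.50, for Hoxd8 -0.34 to 0.49, for Hoxa9 -0.11 to 0.35 and for Hoxa7 -0.40 to 0.06. Hoxd4 (log2 fold change 0.49 ± 0.18), Hoxc10 (log2 fold change 0.47 ± 0.17) and Hoxc6 (log2 fold change 0.46 ± 0.15) had non-overlapping groups with higher inhibitor-treated values, and their adjusted p were 0.176, 0.157 and 0.12.

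Over all 9 libraries, the 3 injured libraries lay above the other 6 for 14 coding members, below them for 10 and within their range for 6. Over the 16535 genes compared in this way, 19.6% lay above and 19.5% below. Clusters C and D together made 22.8 ± 0.893% of the summed HOX level per kb in inhibitor-treated, 55.4 ± 2.37% in injured and 18.7 ± 2.91% in sham libraries. Cluster A made 38.7 ± 1.68% in inhibitor-treated, 23.8 ± 2.75% in injured and 41.5 ± 2.02% in sham libraries, and cluster B 38.4 ± 0.844% in inhibitor-treated, 20.8 ± 0.438% in injured and 39.8 ± 1.25% in sham libraries. Paralogs 9 to 11 of all clusters made 14.7 ± 0.552% in inhibitor-treated, 32.2 ± 0.827% in injured and 11.9 ± 1.14% in sham libraries. The sum itself was 2759.9 ± 23.4 in inhibitor-treated, 3691 ± 554 in injured and 2854 ± 90.2 in sham libraries. These shares were not tested.

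**Figure D4:**
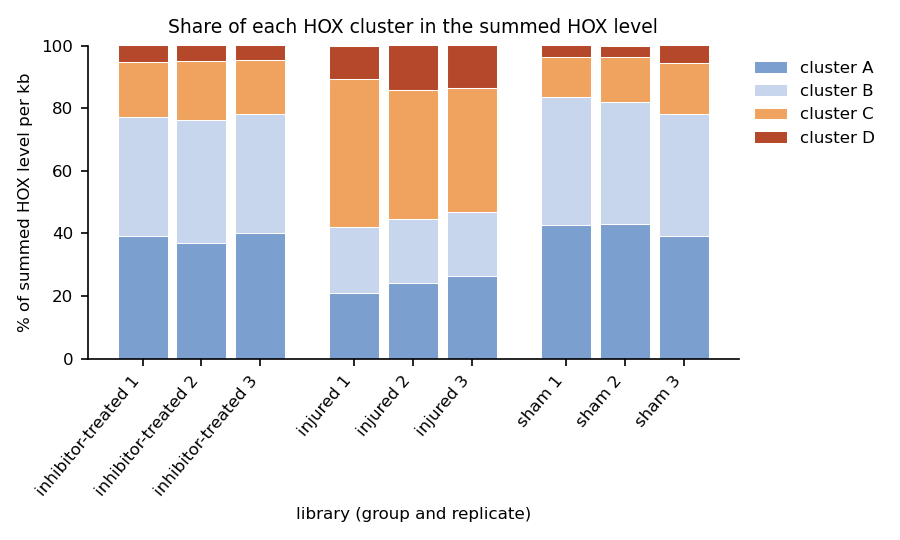
Share of clusters A to D in the summed level of the 30 coding HOX genes per kb of exon (vertical axis, percent, stacked bars) in each library (horizontal axis: inhibitor-treated, injured, sham). Clusters C and D together take 53.1 to 57.8% of each injured bar, against 21.9 to 23.7% of the inhibitor-treated and 16.3 to 22.0% of the sham bars.

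Injured libraries also differed among themselves. Replicate 1 was the highest and replicate 3 the lowest injured library for Hoxc8, Hoxc9, Hoxb4, Hoxb8 and Hoxa5, genes that lay on both sides of the comparison with sham. The coefficients of variation of the injured group were 39.5% for Hoxc8, 36.2% for Hoxc9 and 42.5% for Hoxb4, and 2.39% for Hoxa9. Injured replicate 2, which carried the most skeletal muscle marker RNA, lay between the others by the choice of these 5 genes. The reads of replicate 1 were the fewest of the 9 libraries, at 14676891.

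The 6 non-coding members followed neighbours of the same cluster in direction where they were called. Whether reads were assigned by strand is not given in the sources used here, so reads of an antisense RNA and of the gene it overlaps may not be told apart. Hoxaas2, which overlaps Hoxa3, had 152, 173 and 200.3 in inhibitor-treated, 37.1, 38.0 and 54.2 in injured and 188, 227 and 148 in sham libraries. It was lower in injured than in sham libraries (log2 fold change -2.10 ± 0.25, adjusted p = 0.000333) and higher in inhibitor-treated than in injured libraries (log2 fold change 2.01 ± 0.22, adjusted p = 0.000592). Hoxd3os1, antisense to Hoxd3 and Hoxd4, had 30.4, 50.5 and 27.3 in inhibitor-treated, 169.7, 126 and 99.8 in injured and 31.1, 27.0 and 33.8 in sham libraries. It was higher in injured than in sham (log2 fold change 2.03 ± 0.26, adjusted p = 0.00051) and lower in inhibitor-treated than in injured libraries (log2 fold change -1.86 ± 0.31, adjusted p = 0.00346). The other cluster RNAs changed less or rested on few reads.

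Hoxb5os had 62.8, 53.3 and 50.1 in inhibitor-treated, 19.1, 12.4 and 37.0 in injured and 77.2, 51.7 and 49.1 in sham libraries. Its calls, -1.45 ± 0.42 in injured against sham and 1.38 ± 0.41 in inhibitor-treated against injured libraries, were lost in 5 and 7 of 16 alternative settings. Hoxaas3, which overlaps Hoxa3 and Hoxa7, had 47.7 ± 7.49 in inhibitor-treated, 30.2 ± 6.46 in injured and 39.6 ± 3.68 in sham libraries, and Hoxb3os, with 76.2% of its exon bases over Hoxb2 and Hoxb3, had 101 ± 6.20 in inhibitor-treated, 76.8 ± 8.52 in injured and 88.2 ± 5.99 in sham libraries. Neither was called in any comparison. Hoxa11os was in 1 table only, with a mean of 5.77 in inhibitor-treated and 16.4 in injured libraries (log2 fold change -1.34 ± 0.47, adjusted p = 0.0603). In inhibitor-treated against sham libraries 0 of 5 non-coding members were called by limma and 0 had an unadjusted p under 0.05.

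Other transcripts of the clusters were followed as a list, of which 11 were tested in each comparison, not the same 11 throughout. In injured against sham libraries 4 were called higher and 2 lower, where 20.6% and 16.8% of all genes were, and in inhibitor-treated against injured libraries 1 higher and 2 lower, where 17.6% and 18.5% were. Hotairm1, a non-coding RNA next to Hoxa2, had 285, 339 and 228 in inhibitor-treated, 159, 141 and 120.5 in injured and 267, 253 and 233 in sham libraries. It was lower in injured than in sham (log2 fold change -0.85 ± 0.17, adjusted p = 0.00425) and higher in inhibitor-treated than in injured libraries (log2 fold change 1.01 ± 0.19, adjusted p = 0.00577), the direction of the Hoxa genes beside it. The others called higher in injured libraries were Haglr and Skap1, which rest on few reads, Snx10 and Lnpk. Lnpk, next to cluster D, was higher in injured libraries (log2 fold change 0.59 ± 0.14) and in inhibitor-treated libraries (log2 fold change 0.66 ± 0.14) than in sham, and did not pass between inhibitor-treated and injured libraries (log2 fold change 0.06 ± 0.16). Haglr and Mtx2 were the members called lower in inhibitor-treated than in injured libraries. Mtx2, on the far side of cluster D, was at 348 ± 36.4 in inhibitor-treated and 470.2 ± 50.5 in injured libraries (log2 fold change -0.43 ± 0.13, adjusted p = 0.0392), and Cbx5, next to cluster C, at 1978 ± 155 in injured and 2703 ± 36.5 in sham libraries (log2 fold change -0.46 ± 0.10, adjusted p = 0.00838).

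Among 9 HOX cofactors of the PBX, MEIS and PKNOX families, 2 were called lower in injured than in sham libraries and the same 2 higher in inhibitor-treated than in injured libraries, near the shares over all genes tested of 16.8% lower and 17.6% higher. Meis1, which binds DNA with HOX and PBX proteins, had 462, 394 and 513 in inhibitor-treated, 195, 179 and 183 in injured and 493, 611 and 493 in sham libraries. The log2 fold changes were -1.51 ± 0.14 for injured against sham (adjusted p = 0.000104) and 1.29 ± 0.13 for inhibitor-treated against injured (adjusted p = 0.000474). Meis2 had 695, 589 and 669 in inhibitor-treated, 458, 328 and 399 in injured and 760.5, 778 and 744 in sham libraries, with log2 fold changes of -0.96 ± 0.14 for injured against sham and 0.73 ± 0.15 for inhibitor-treated against injured. For both genes no injured library reached the level of any other library. The other 7 did not pass in any comparison.

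A list of 28 other limb and positional transcription factors had 21 members tested. Emx2, En1, Lmx1b and Tbx4 reached the mean needed for a test only through their injured values. In injured against sham libraries the same held for Lhx9. Where this held, a gene could hardly be called lower in injured libraries. Hand2 passed only through its sham or inhibitor-treated values, and could hardly be called higher in injured libraries. The counts and medians of the list are partly set by this. In injured against sham libraries 14 were called higher and 2 lower (median log2 fold change 1.48, against 0.00 over all genes tested, of which 20.6% were called higher and 16.8% lower), and in inhibitor-treated against injured libraries 14 lower and 1 higher (median -1.31, against 0.01, with 18.5% of all genes called lower and 17.6% higher). Tbx15, a gene of the limb and trunk skeleton, had 323, 374 and 292 in inhibitor-treated, 929, 1373 and 681 in injured and 234, 253 and 273 in sham libraries (log2 fold change 1.91 ± 0.23 for injured against sham). Meox1, a somite gene, had 113, 117 and 108 in inhibitor-treated, 475, 349 and 348 in injured and 134, 78.7 and 127 in sham libraries (log2 fold change 1.79 ± 0.24). Shox2, which shapes the upper limb bones and the sinus node, had 397, 393 and 345 in inhibitor-treated, 1197, 886 and 879 in injured and 274, 355 and 329 in sham libraries (log2 fold change 1.61 ± 0.16). In all 3 genes the injured libraries lay above the other 6, and Tbx15 was highest in injured replicate 2, the library with the most skeletal muscle marker RNA. Prrx2, a limb mesenchyme gene, was at 65.7 ± 14.0 in inhibitor-treated, 258 ± 51.4 in injured and 83.9 ± 7.63 in sham libraries (log2 fold change 1.59 ± 0.20 for injured against sham and -1.96 ± 0.23 for inhibitor-treated against injured). Meox1, Tbx15 and Shox2 were called lower in inhibitor-treated than in injured libraries, with log2 fold changes of -1.76, -1.53 and -1.37.

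Tbx18, a gene of mural cells and the epicardium, went the other way, with 1304, 1089 and 1202 in inhibitor-treated, 746, 546 and 551 in injured and 1690.5, 1575 and 1395 in sham libraries (log2 fold change -1.36 ± 0.15 for injured against sham and 0.98 ± 0.15 for inhibitor-treated against injured). Pitx1 and Tbx4, which specify the hindlimb in the embryo, are low genes; they and Meox2, another somite gene, were singled out after their values were seen. Meox2 had 629.6, 546 and 565 in inhibitor-treated, 1322, 1342 and 1703 in injured and 455, 482 and 667 in sham libraries (log2 fold change 1.45 ± 0.17 for injured against sham). Pitx1 had 12.4, 26.7 and 40.1 in inhibitor-treated, 257, 124 and 116 in injured and 22.1, 14.1 and 42.5 in sham libraries (log2 fold change 2.64 ± 0.45 for injured against sham, adjusted p = 0.00213). Tbx4 was at 1.83 ± 1.58 in inhibitor-treated, 19.8 ± 3.59 in injured and 3.02 ± 2.54 in sham libraries (log2 fold change 2.53 ± 0.57, adjusted p = 0.00878). Pitx1 and Tbx4 were called lower in inhibitor-treated than in injured libraries (log2 fold change -2.65 ± 0.48 and -3.12 ± 0.69). In both comparisons Tbx4 reached the mean needed for a test only through its injured values. It could therefore hardly be called lower in injured libraries, and the direction of its calls carries little information. The summed fibroblast markers were also highest in the injured libraries. The skeletal muscle sum was highest in injured replicate 2, and its range overlapped between inhibitor-treated and injured libraries. Between injured and sham libraries its range did not overlap, and 9 of 12 skeletal muscle markers were called higher in injured libraries. The part of either cell type was not tested.

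**Figure D5:**
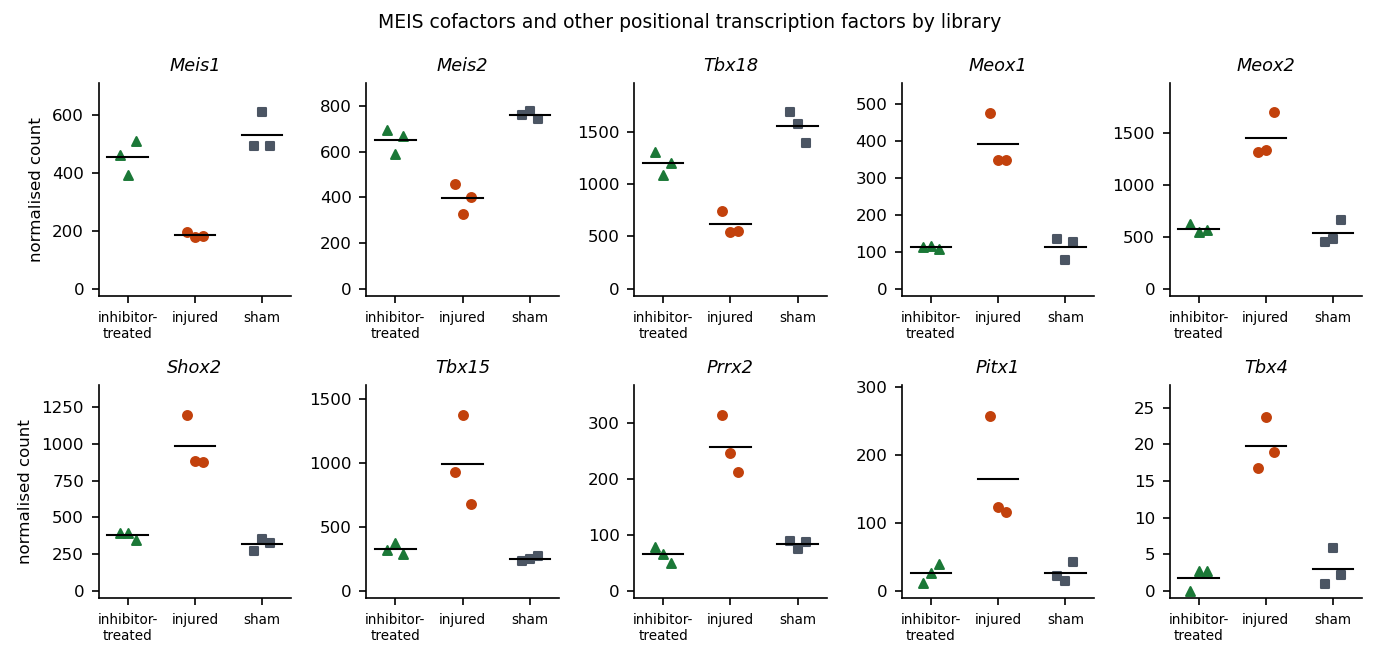
Normalised count (vertical axis, linear, with a different range in each panel) of 2 MEIS cofactors and 8 other positional transcription factors in inhibitor-treated, injured and sham libraries (points), with the group mean as a line. Meis1, Meis2 and Tbx18 are lowest in the injured group, and the other 7 genes are highest there, as for Shox2 at 879 to 1197, against 345 to 397 in inhibitor-treated and 274 to 355 in sham libraries.

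Of 20 Polycomb genes, which keep HOX clusters silent, 5 were called higher and 4 lower in injured against sham libraries, and 6 higher and 2 lower in inhibitor-treated against injured libraries. The 9 and 8 called genes compare with 37.3% and 36.1% of all genes tested in these comparisons. Cbx7, a subunit that reads the Polycomb mark, had 1639.6, 1541 and 1639 in inhibitor-treated, 692, 748 and 802 in injured and 1394, 1471 and 1356 in sham libraries (log2 fold change -0.92 ± 0.11 for injured against sham, 1.11 ± 0.09 for inhibitor-treated against injured). Cbx8, another such subunit, had 64.7, 91.9 and 93.8 in inhibitor-treated, 213, 177 and 176 in injured and 72.2, 105 and 87.3 in sham libraries (log2 fold change 1.09 ± 0.20 and -1.18 ± 0.20). The 2 subunits thus lay on opposite sides. Ezh2, the methyltransferase that writes the mark, had 1796, 1453 and 600.0 in inhibitor-treated, 389.7, 356 and 354 in injured and 128, 155 and 177 in sham libraries, and was called higher in all 3 comparisons, including inhibitor-treated against sham (log2 fold change 2.94 ± 0.36). Inhibitor-treated libraries were also those with high erythroid marker sums, and the part of such cells in Ezh2 was not tested. Of 11 Trithorax and demethylase genes 2 were called lower in injured against sham libraries, Men1 (log2 fold change -0.51 ± 0.11) and Psip1 (log2 fold change -0.33 ± 0.10), and 4 higher in inhibitor-treated against injured libraries, namely Kmt2a (0.31 ± 0.10), Kmt2b (0.38 ± 0.11), Men1 (0.42 ± 0.10) and Ash1l (0.63 ± 0.15) on the log2 scale. Over all genes tested, 16.8% were called lower in injured than in sham libraries and 17.6% higher in inhibitor-treated than in injured libraries.

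Retinoic acid, made from vitamin A by retinaldehyde dehydrogenases, is a classical inducer of HOX genes. Of 15 tested genes of its pathway, 5 were called higher and 4 lower in injured against sham libraries, and 3 higher and 6 lower in inhibitor-treated against injured libraries. Of all genes tested, 20.6% were called higher and 16.8% lower after injury, and 17.6% higher and 18.5% lower with the inhibitor. Aldh1a2, a synthesis enzyme, had 17.1, 34.9 and 32.8 in inhibitor-treated, 326, 431 and 296 in injured and 25.1, 8.22 and 49.1 in sham libraries (log2 fold change 3.91 ± 0.53 for injured against sham, adjusted p = 0.000698). Aldh1a3, another such enzyme, had 110.3, 124 and 141 in inhibitor-treated, 484, 365 and 534 in injured and 179, 133 and 272 in sham libraries (log2 fold change 1.28 ± 0.26). Both were highest in the injured group. Cyp26b1, which degrades retinoic acid, had 287, 287 and 284 in inhibitor-treated, 176, 172 and 138 in injured and 415, 370.0 and 307 in sham libraries (log2 fold change -1.17 ± 0.17), and Rarb, a receptor that is itself induced by retinoic acid, had 190.2, 159.9 and 206 in inhibitor-treated, 68.1, 125 and 101 in injured and 259, 222 and 238 in sham libraries (log2 fold change -1.33 ± 0.24). These 2 genes were lowest in the injured group. Of 14 genes of the pathway tested between inhibitor-treated and sham libraries, 1 was called higher, Aldh1a1 (log2 fold change 1.15 ± 0.23), and 1 lower, where 5.15% of all genes were called higher and 0.934% lower.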

How the data were processed

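RNA-seq of 9 libraries, 3 each of inhibitor-treated, injured and sham femoral artery media, was used as deposited in 3 tables, 1 for each pair of groups. The deposited values are a normalised signal, read counts that the authors divided by 1 factor per library and table, as read from the values themselves; per the file headers the tables also hold the authors' log2 fold change, p-value and adjusted p-value, used only where named. Per the submitters' processing notes the build was mm10 (GRCm38); the aligner, the counter and its use of strand are not stated. Low genes are absent from the tables (smallest table mean 9.22). Dividing by the value of 1 read returned whole reads for 100% of values within 0.01 of a read in every library, between 14676891 and 21248740 per library, and a library present in 2 tables gave equal reads for 143802 of 143802 values. Levels across groups were rescaled from these reads with median-of-ratios factors over the 16750 genes in at least 2 tables. Replicates differed beyond sampling noise.

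Tests used limma 3.58.1 (R 4.3.3, trended variance) within the table of each pair of groups, on log2 of the normalised count plus 1, with group as the only term, genes with a mean of at least 10, two-sided, with Benjamini-Hochberg adjustment over all genes tested; the script was tested on simulated data. The members, gene lists and tests were chosen with earlier results of these data known. Lists are described by counts, without a test of the list. Named genes are the coding members, with values per library for called ones, and at most 4 called members of each further list per comparison with a mean of at least 100. Exon lengths, overlaps and positions came from GENCODE M21. Alternatives were a pseudocount of 5, no filter, edgeR 4.0.16 and DESeq2 1.42.0 on the recovered reads, 2 other scalings, 1 fit of all libraries, a replicate block, leaving out libraries, and the authors' deposited table. Limits on counts of 0 cover counting error only. One coding member and some list genes are counted but not reported here by name.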

Additional observations from a re-analysis of the deposited data

How the results depend on the processing

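No coding HOX gene turned its direction past the threshold in any of the alternatives run. Of 480 results of coding members in injured against sham libraries over 16 alternatives, 440 kept their side of the threshold, 32 lost it and 8 gained it; in inhibitor-treated against injured libraries the numbers were 444, 33 and 3 of 480, and in inhibitor-treated against sham 446, 0 and 2 of 448. Leaving out single libraries gave 21 to 25 called members between injured and sham libraries, 19 to 23 between inhibitor-treated and injured, and 0 between inhibitor-treated and sham. Leaving out the 3 libraries that stood apart (injured replicate 2, sham replicate 3 and inhibitor-treated replicate 3) left 2 libraries a group, and then 12 members and 3069 genes were called in inhibitor-treated against injured libraries, against 23 and 6099. In inhibitor-treated against sham libraries edgeR called 1 member (Hoxa5) and scaling on ribosomal protein genes 1 (Hoxc6), against 0, and leaving out single libraries called 518 to 822 genes, against 983: 518 without sham replicate 1, 599 without sham replicate 2, and 601 and 541 without inhibitor-treated replicates 1 and 2.

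Scaled on ribosomal protein genes, all genes split into 2046 higher and 2577 lower in injured against sham (3346 and 2730 as reported), 3590 and 1310 between inhibitor-treated and injured libraries (2976 and 3123) and 1320 and 33 between inhibitor-treated and sham libraries (832 and 151). With quantile normalisation the split was 2842 and 3344 in injured against sham and 617 and 220 in inhibitor-treated against sham. A replicate block gave 23, 22 and 0 called members and 5762, 5747 and 877 called genes in the 3 comparisons, in that order. Deviations from group means of same-numbered libraries correlated between -0.074 and 0.214. The labels state no pairing, and with 3 libraries a group these correlations cannot decide whether the numbers pair the libraries. On the recovered reads edgeR called 6055, 5962 and 899 genes and DESeq2 6412, 6771 and 1434. The cause of these changes was not tested, apart from the fewer libraries. Among members with few reads, the calls of Hoxa11 and Hoxd3 in injured against sham and of Hoxc11 in inhibitor-treated against injured libraries were lost in 12, 8 and 6 of 16 alternatives, and the part of depth in this was not tested.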
